A study of Mus musculus with 4 samples.

Results

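Transcript levels of 10 genes of glucose uptake and glycolysis were compared in resting peritoneal macrophages between wild type and CD13 null mice. CD13 is a surface aminopeptidase encoded by Anpep. The genes were chosen by name: the glucose transporter gene Slc2a1, the enzyme genes Hk1, Hk2, Gpi1, Pfkl, Aldoa, Pgk1, Eno1 and Pkm along the pathway, and Ldha at its end. The platform annotation assigned 12 of the 45281 probes to 7 of these genes by gene identifier. It assigned none to Hk2, Gpi1 or Eno1, so their transcript levels were not analysed here. Of the 12 probes, 9 counted as measured, meaning a detection p-value under 0.01 on 2 or more arrays, and all 7 genes kept at least 1 measured probe. They were tested among 10335 genes and unnamed probes.

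The 2 groups were wild type (WT) and CD13 knock out (KO), each with 2 arrays of cells from the C57BL/6 strain. The labels add no other allele or treatment, and age, sex and the number of animals behind an array are not stated. The series text also mentions macrophages derived from bone marrow, and the labels were followed. No source says that the arrays came from separate animals, so the p-values reflect the spread among these 4 arrays, and that spread may be technical.

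Glycolysis splits glucose into pyruvate in the cytosol and yields ATP without oxygen. Lactate dehydrogenase then turns pyruvate into lactate, which regenerates the cofactor that the pathway consumes. In macrophages the flux through this pathway rises on inflammatory activation, and hypoxia-inducible factors are known to raise transcription of many of its genes.

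Per the series text, labelled cRNA was hybridised to Illumina BeadChips, on which each probe is read as an average bead intensity. The median deposited signal lay between 109.0 and 167.1 on the 4 arrays, and 13659 to 14823 probes were above background. Anpep, the targeted gene, had log2 intensities of 13.58 and 13.40 in WT and 11.12 and 11.03 in KO, and its single probe stayed above background in KO. Whether that probe lies inside the deleted stretch is not stated. Of 8 macrophage markers listed, 7 were measured, and their summed linear intensity was 124512 and 128903 in WT and 116017 and 110031 in KO. Such a sum is weighted to the brightest markers. The mean was lower in KO for Itgam (log2 change -1.59), Adgre1 (-0.51), Csf1r (-0.40), Cd14 (-0.18) and Lyz2 (-0.07). It was higher for Fcgr1 (0.36) and Mertk (0.27). By the test 0 of the 7 passed, where 0.0968% of all genes and unnamed probes did.

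The promoter windows of 3 members are shown because these members have the smallest p-value (Pkm), the most negative change (Pfkl) and the most motif matches (Ldha). Each window holds the 250 bases before an annotated start, 5′ to 3′ on the gene's strand, from RefSeq on build GRCm38.p6. Capitals mark ACGTG or GCGTG on either strand, the core letters of the element that hypoxia-inducible factors recognise.
Pkm, chr9:59656326-59656575, plus strand, the first of 2 windows: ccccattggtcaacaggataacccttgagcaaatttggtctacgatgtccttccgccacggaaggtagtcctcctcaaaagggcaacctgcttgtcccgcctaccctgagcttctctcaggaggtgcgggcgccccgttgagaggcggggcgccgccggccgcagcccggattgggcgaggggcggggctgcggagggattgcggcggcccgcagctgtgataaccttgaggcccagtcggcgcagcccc
Pfkl, chr10:78009808-78010057, minus strand: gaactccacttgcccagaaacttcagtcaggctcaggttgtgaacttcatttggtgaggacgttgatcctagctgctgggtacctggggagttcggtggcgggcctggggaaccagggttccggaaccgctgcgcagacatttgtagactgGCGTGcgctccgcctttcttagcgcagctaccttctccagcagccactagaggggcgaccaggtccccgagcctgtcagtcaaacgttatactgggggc
Ldha, chr7:46845554-46845803, plus strand, the first of 2 windows: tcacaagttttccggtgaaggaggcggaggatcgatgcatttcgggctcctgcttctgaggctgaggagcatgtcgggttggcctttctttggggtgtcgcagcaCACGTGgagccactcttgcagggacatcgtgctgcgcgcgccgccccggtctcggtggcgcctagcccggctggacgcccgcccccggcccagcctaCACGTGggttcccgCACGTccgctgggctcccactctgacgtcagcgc

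The Pkm window held 0 matches and its other annotated window 1. The Pfkl window held 1 match. The Ldha window held 5 matches, all ACGTG, of which 4 overlap in pairs because CACGTG, which occurs 2 times there, reads as ACGTG on both strands. Slc2a1 had 2 matches in its single window and Pgk1 2. Over all 10 members, Hk2, Gpi1 and Eno1 included, 13 of 17 windows (76.5%) held at least 1 match, against 38.6% of 32851 windows of the same length over all genes. Windows of 1 gene can overlap. The members' windows ranged from 49.6% to 71.2% GC, and most lay above the median of 52.4% over all windows. Both motifs contain CG, and the compared shares were not matched for GC content. A match describes letters only.

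No member passed the test between KO and WT. The interval of the change included 0 for 6 of the 7 and left it out for Pkm. By limma with Benjamini-Hochberg adjustment over all 10335 features, 0 of 7 members had an adjusted p under 0.05, where 0.0968% of all features did. At an unadjusted p under 0.05 there was 1 member, Pkm, and 9.34% of all features. The members' log2 changes, KO minus WT, ran from -0.33 to 0.62 with a median of 0.13, and the median over all features was 0.01. The mean was higher in KO for 5 of the 7 members and for 51.8% of all features. For any single gene, 0.333 is the smallest two-sided p that an exact permutation test of 4 such arrays allows.

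Slc2a1 encodes GLUT1, the transporter that brings glucose across the plasma membrane. Its normalized log2 intensity was 13.27 and 13.13 on WT arrays 1 and 2 and 13.63 and 13.20 on KO arrays 1 and 2. KO array 1 was the highest of the 4, and KO array 2 lay between both WT arrays. The log2 change was 0.22 ± 0.21 (moderated SE, n = 2 arrays per group), with a 95% confidence interval of -0.32 to 0.75 and a limma adjusted p of 0.823. Without KO array 1 the change was 0.005, and without KO array 2 it was 0.43.

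Hk1 encodes hexokinase 1, which phosphorylates glucose so that it stays in the cell. The Hk1 probe with the higher mean gave log2 intensities of 8.43 and 8.32 in WT and 8.62 and 8.40 in KO. KO array 2 lay within the WT range, so the groups overlapped. The log2 change was 0.13 ± 0.18 (SE), with an interval of -0.32 to 0.59, and ran from 0.02 without KO array 1 to 0.25 without KO array 2. The other measured Hk1 probe read 7.24 and 6.68 in WT and 7.52 and 6.73 in KO, a log2 change of 0.16 ± 0.34 (SE) with overlapping groups.

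Pfkl encodes the liver-type subunit of phosphofructokinase, the enzyme of the first committed step of glycolysis. Its log2 intensity was 11.47 and 12.03 in WT and 11.50 and 11.35 in KO. WT array 2 stood above the other 3 arrays, and WT array 1 lay inside the KO range. The log2 change was -0.33 ± 0.24 (SE), with an interval of -0.93 to 0.27 and a limma adjusted p of 0.75. It was -0.05 without WT array 2 and -0.61 without WT array 1. The other Pfkl probe had no detection p under 0.01 on the 4 arrays, so no fold is given for it.

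Aldoa encodes aldolase A, which cleaves the doubly phosphorylated sugar into a pair of triose phosphates. Its log2 intensity was 12.58 and 12.65 in WT and 12.68 and 13.02 in KO. Both KO arrays lay above both WT arrays, KO array 1 by little. The log2 change was 0.24 ± 0.20 (SE), with an interval of -0.25 to 0.73 and a limma adjusted p of 0.784. It was 0.07 without KO array 2 and 0.41 without KO array 1.

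Pgk1 encodes phosphoglycerate kinase 1, which catalyses the first ATP-yielding step. Its measured probe gave 11.64 and 11.46 in WT and 11.59 and 11.73 in KO, and the groups overlapped. The log2 change was 0.11 ± 0.18 (SE), with an interval of -0.34 to 0.56, and ran from 0.02 without WT array 2 to 0.20 without WT array 1. The other 2 Pgk1 probes were not above background on any array. Pgk1 and other glycolytic genes have processed pseudogenes in the mouse, and whether a probe also reads such copies cannot be told from the files.

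Pkm encodes the muscle-type pyruvate kinase, which forms pyruvate in the last step and is made in alternative splice forms. Its deposited signal was 7417 and 6414 in WT and 7684 and 6662 in KO, before any scaling between arrays. Its normalized log2 intensity was 12.37 and 12.60 in WT and 13.02 and 13.19 in KO. After normalization both KO arrays stood above both WT arrays, and the smallest gap between the groups exceeded the gap within either group. The mean was 1.54-fold higher in KO, a log2 change of 0.62 ± 0.19 (SE) with an interval of 0.15 to 1.09. The unadjusted p was 0.0178, the 435th smallest of 10335, and the limma adjusted p was 0.42, so it did not pass.

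The authors' own quantile normalized intensities for the same Pkm probe were 5404 and 6289 in WT and 8413 and 9440 in KO, again with no overlap. A dimmer Pkm probe, designed on another transcript record, read 7.31 and 6.70 in WT and 7.40 and 7.07 in KO on the log2 scale. There the groups overlapped and the log2 change was 0.23 ± 0.27 (SE). Which splice form each probe reads is not stated. The change of the brighter probe was 0.51 to 0.73 when single arrays were left out. With the mean of both measured probes it was 0.42.

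Ldha encodes the A subunit of lactate dehydrogenase. Its log2 intensity was 13.52 and 13.54 in WT and 13.51 and 13.38 in KO. Both KO arrays were lower than both WT arrays, KO array 1 only just. The log2 change was -0.09 ± 0.17 (SE), with an interval of -0.51 to 0.34 and a limma adjusted p of 0.926. It was -0.02 without KO array 2 and -0.15 without KO array 1.

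**Figure D1:**
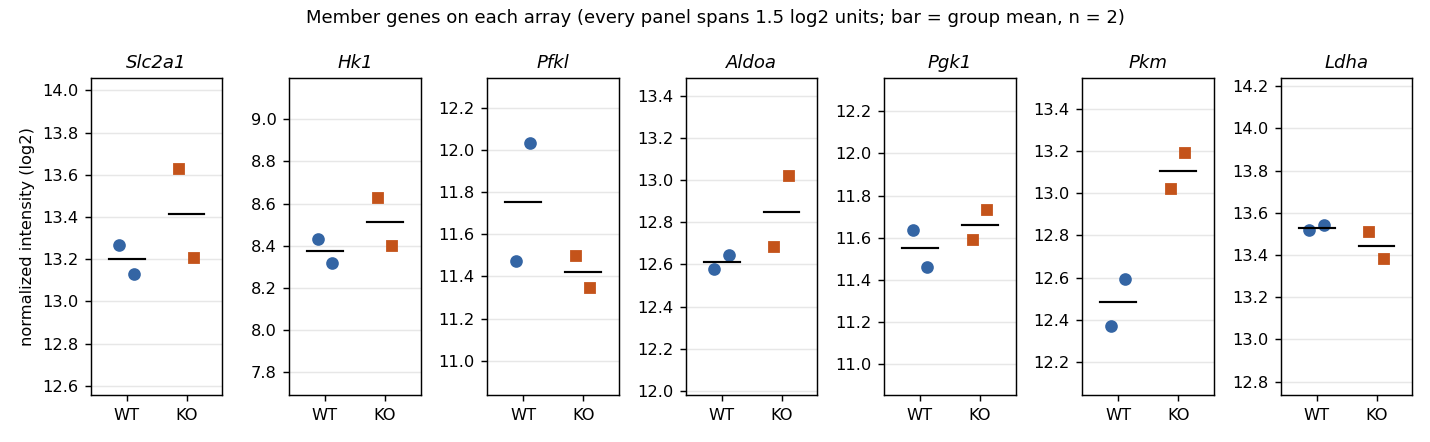
Normalized log2 intensity of the 7 measured members on each array, with WT as blue circles, KO as orange squares and the mean of 2 arrays as a bar. Pkm shows the widest separation of the groups, Pfkl has 1 high WT array, and every panel spans the same log2 range around its own centre.

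After normalization the groups did not overlap for 3 of the 7 members, with Pkm and Aldoa higher and Ldha lower in KO. Over all features the groups did not overlap for 39.9%, with KO higher for 20.8% and lower for 19.1%, so the members' count lay near the background. Ldha and Aldoa lie on the chromosome that carries Anpep, as does Gpi1, and the other 5 measured members lie elsewhere. The part of that location in their values was not tested.

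The direction of several members rested on the scaling between arrays. On the deposited signals the log2 difference, KO minus WT, had a median of -0.54 over all features, and 69.2% of features were lower in KO with no overlap. Of the members, 4 were lower in KO without overlap on that scale (Pfkl, Aldoa, Pgk1 and Ldha), and 0 were higher without overlap, against 0.29% of all features. Aldoa had a deposited log2 difference of -0.35 and Slc2a1 of -0.36, both less negative than the median. Pkm had a deposited difference of 0.05, which lay 0.59 above the median of all features. Pfkl, at -0.91, differed from that median by -0.37.

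**Figure D2:**
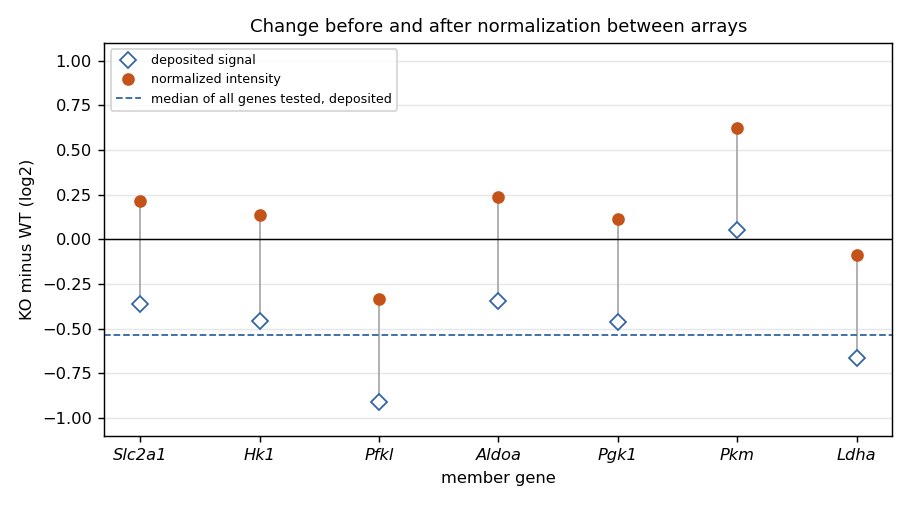
KO minus WT on the log2 scale for each member, from the deposited signals (open diamonds) and after normalization (filled circles), with the median of all features on the deposited scale at -0.54 as a dashed line. Members above the dashed line are the 5 whose normalized change is positive, and Pfkl and Ldha lie below it.

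Scaling the arrays by their medians over all probes, in place of quantile normalization, moved the median change of all features to -0.33. Slc2a1, Hk1, Aldoa and Pgk1 then had negative log2 changes (-0.11, -0.24, -0.09 and -0.22). Per array 13659 to 14823 of 45281 probes were above background, so the medians used for this scaling fell among the others. Relative to the shifted median the same 2 members were lower as before, Pfkl by a difference of -0.35 and Ldha of -0.09. Pkm was 0.64 above that median. Median scaling over the probes detected on all 4 arrays turned no member. It left the median change of all features at 0.05, with 5 members higher in KO and 11 features called. Over the 17 settings Pkm ran from 0.31 to 0.73 with a positive sign throughout, Pfkl from -0.67 to -0.05 and Ldha from -0.41 to -0.02, both with a negative sign throughout. The smallest limma adjusted p of any member in any other setting was 0.24, for Pkm.

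**Figure D3:**
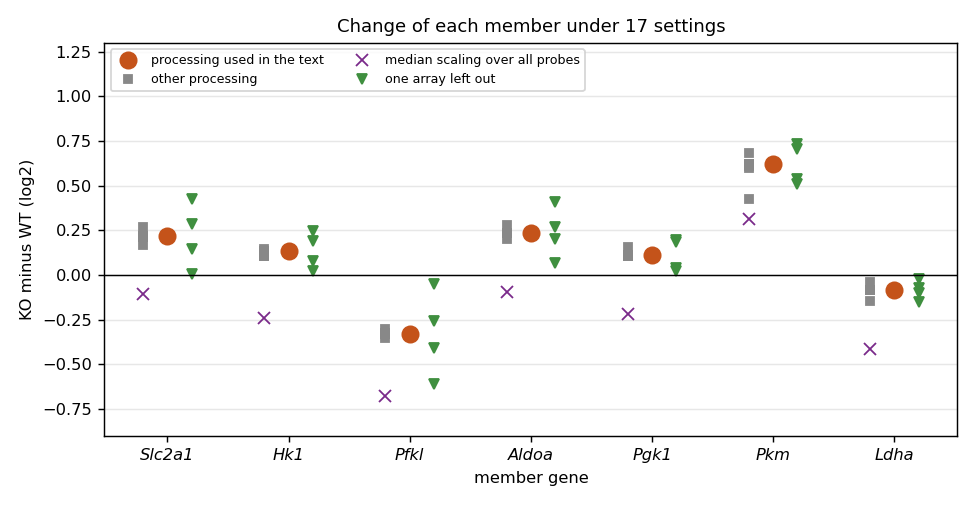
Log2 change, KO minus WT, of each member under 17 settings, with the values given in the text as large circles, other processing as squares, median scaling over all probes as crosses and 1 array left out as triangles. Pkm stays above 0 and Pfkl and Ldha below 0 under each, and the crosses turn negative for Slc2a1, Hk1, Aldoa and Pgk1.

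Genes that surround these members in glucose metabolism, and hypoxia factors and targets, were described from 7 further lists with 79 entries, of which 49 were measured. By limma 0 of the 49 passed, where 0.0968% of all features did. At an unadjusted p under 0.05 there were 8 (3 higher and 5 lower in KO), and 9.34% of all features. The mean was higher in KO for 23 of the 49 and for 51.8% of all features. The median log2 change of the 49, hypoxia genes included, was -0.03. With none passing in a list, the 2 members with the smallest unadjusted p were named in each.

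Of 10 measured further glycolytic enzymes among 16 listed, 6 had a higher mean in KO and the median log2 change was 0.17. Aldoc, which encodes the brain-type aldolase, read 6.41 and 6.31 in WT and 6.93 and 7.19 in KO (0.70 ± 0.19 SE, limma adjusted p = 0.372). It was above background on 1 of 2 WT arrays. Eno2, which encodes the neuronal-type enolase, read 11.74 and 11.33 in WT and 12.13 and 12.17 in KO (0.61 ± 0.21 SE, limma adjusted p = 0.481). Neither gene's groups overlapped. Bpgm, added after its value was seen, had the largest change of the 10 and was lower in KO (-0.90 ± 0.34 SE, limma adjusted p = 0.524). It was above background on 0 of 2 KO arrays. Gapdh, Tpi1 and Pgam1, chosen after their values were seen because they fill the steps between the members, had log2 changes of 0.10 ± 0.17, 0.23 ± 0.19 and -0.12 ± 0.18 (SE).

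Of 4 measured transporters, 2 had a higher mean in KO. Slc2a6, which encodes a member of the same family of sugar transporters as GLUT1, read 11.98 and 12.49 in WT and 11.42 and 11.38 in KO. Both KO arrays were lower, with a log2 change of -0.84 ± 0.23 (SE) and a limma adjusted p of 0.377. Slc2a3, which encodes GLUT3, had a log2 change of 0.15 ± 0.18 (SE).

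Of 7 measured regulators of flux, 3 had a higher mean and the median was -0.03. Pdp1, which encodes a phosphatase that activates pyruvate dehydrogenase, had a log2 change of 0.48 ± 0.21 (SE), and Pfkfb4, which encodes an enzyme that sets the level of an activator of phosphofructokinase, of 0.27 ± 0.17 (SE). The pyruvate dehydrogenase complex carries pyruvate into mitochondrial oxidation. Of its 4 measured genes the most negative change was that of Dlat, its acetyltransferase, which read 8.07 and 7.83 in WT and 7.52 and 7.24 in KO (-0.57 ± 0.20 SE, limma adjusted p = 0.497). Pdhb, a subunit of its dehydrogenase component, had a log2 change of -0.39 ± 0.22 (SE).

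Of 6 measured genes of the pentose phosphate pathway, which branches off glycolysis and yields NADPH, 4 were higher on average in KO and the median was 0.16. Rpe, an epimerase of that pathway, had a log2 change of -0.27 ± 0.22 and Pgls, a lactonase, of 0.22 ± 0.18 (SE). Among gluconeogenesis genes 1 of 7 was measured. This was G6pc3, a glucose-6-phosphatase subunit, with a log2 change of 0.44 ± 0.17 (SE, limma adjusted p = 0.533).

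Of 17 measured hypoxia factors and other hypoxia targets, 12 had a lower mean in KO, against 48.2% of all features, and the median was -0.13. Egln3, a prolyl hydroxylase that marks hypoxia-inducible factors for breakdown, read 7.53 and 8.68 in WT and 6.52 and 7.27 in KO (-1.21 ± 0.44 SE, limma adjusted p = 0.508). Both KO arrays lay below both WT arrays, and WT array 2 stood well above WT array 1. Egln3 passed with median scaling over all probes (log2 change -1.56, limma adjusted p = 0.0408), where it lay at -1.23 relative to the shifted median. That scaling, anchored among probes not above background, called 201 features, 187 of them lower in KO, against 10 with quantile normalization as used here. Ankrd37, a target of these factors, read 7.01 and 7.44 in WT and 6.60 and 5.83 in KO (-1.01 ± 0.31 SE, limma adjusted p = 0.43), and was above background on 1 of 2 KO arrays.

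**Figure D4:**
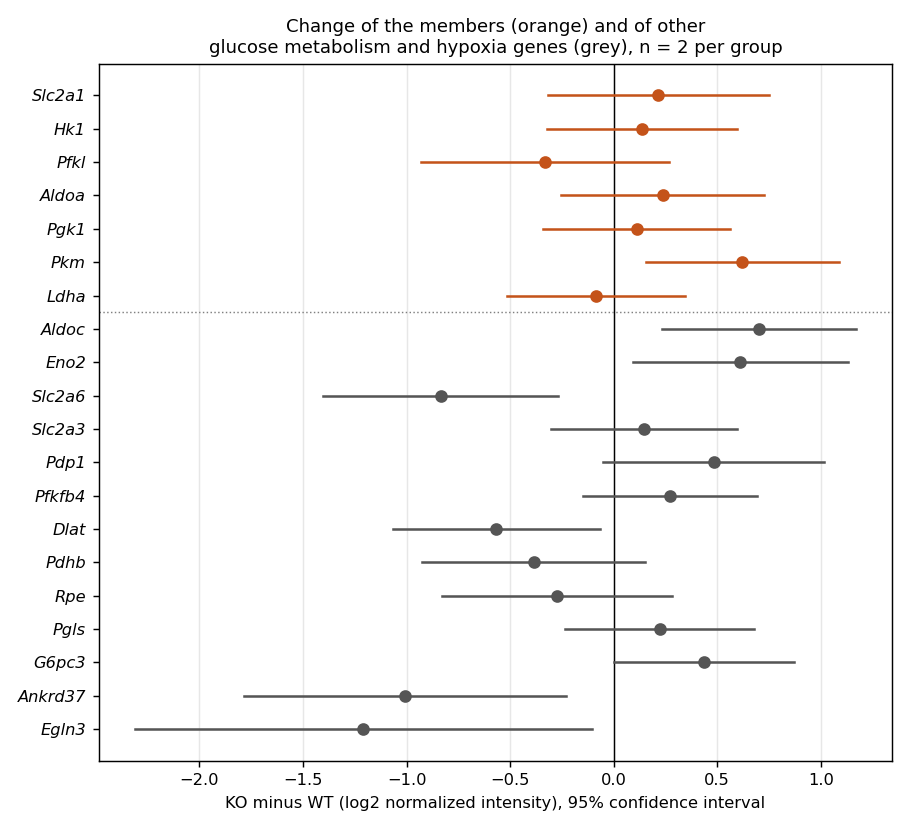
Log2 change, KO minus WT, with its 95% confidence interval for the 7 measured members (orange) and the named genes of the 7 other lists (grey). Of the members, Pkm at 0.62 is the one whose interval leaves out 0, and intervals are not adjusted for the number of genes.

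The 3 genes whose centred log2 values over the 4 arrays lay closest to those of Pkm were Acp5, Ogfod2 and Flywch2, at Euclidean distances of 0.08, 0.09 and 0.09. Acp5 was above background on 1 of 2 WT arrays. Their own log2 changes were 0.60, 0.60 and 0.67, with limma adjusted p-values of 0.469, 0.482 and 0.368. With 4 arrays many genes share such a pattern, and 45 features lay within 2 times the distance of the third of these genes.

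Markers of other cells of the cavity were read beside the members, since in bulk RNA fewer cells of a type and less RNA per cell cannot be told apart. Of 8 genes typical of large peritoneal macrophages 7 were measured, all with a lower mean in KO, against 48.2% of all features. Their log2 changes ran from -1.72 (F5) to -0.04 (Cd9). Their summed linear intensity was 35643 and 48422 in WT and 35041 and 29414 in KO. This sum is weighted to the brightest marker, Cd9, whose groups overlapped (log2 intensities of 14.60 and 14.58 in WT, 14.70 and 14.41 in KO). Of 8 B cell markers 5 were measured, with sums of 4135 and 4850 in WT and 2579 and 3773 in KO, while Pax5 was not above background. Of those 5, Blk, Cd79b and Ms4a1 had a lower mean in KO, and Cd22 and Fcer2a had a higher one (log2 changes of 0.93 and 0.32). Of 8 T and NK cell markers only Lat was measured (116.1 and 262.4 in WT, 830.2 and 625.2 in KO). Cd3d, Klrb1c and Ncr1 were not above background on any array, and Cd3e and Cd3g on no more than 1. Of 8 neutrophil markers Ltf, S100a8 and S100a9 were measured (sums of 1037 and 2642 in WT, 2612 and 2250 in KO), while Ngp, Camp, Elane and Mpo were not above background. Of 8 mast cell and basophil markers 4 were measured (1753 and 2853 in WT, 1965 and 1296 in KO), and Mcpt4, Tpsb2, Ms4a2 and Fcer1a were not above background. Of 6 erythroid markers Hba-a1 and Hbb-bs were measured (742.4 and 1149 in WT, 849.5 and 354.2 in KO), while Alas2 and Slc4a1 were not above background. No eosinophil marker of 6 and no mesothelial marker of 5 was measured. The sums of the B cell, macrophage and large peritoneal macrophage lists were lower in KO without overlap, the last by little. The value of Lat was higher in KO without overlap. By the test no measured marker of any of these lists passed, where 0.0968% of all features did. Among single features the groups did not overlap for 39.9%. The part of these markers in the members' values was not tested.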

How the data were processed

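The deposited signal table holds each probe's average bead intensity, linear and not normalized between arrays, and a detection p-value beside it, per the file headers. GenomeStudio made these values and the quantile normalized intensities in a further deposited table, per the series text and the submitters' processing notes. Whether background was subtracted before export is not stated.

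Signals went through neqc, which fits the normexp background from the detection p-values, adds an offset (16), applies quantile normalization and takes log2 (limma 3.58.1, R 4.3.3). A probe was kept when 2 or more arrays had a detection p-value under 0.01 (14881 probes), and the kept probe with the highest mean stood for a gene. Of all probes 34885 had 1 symbol, 18 had several and 10378 had none, and 34807 matched RefSeq (GRCm38.p6) by gene identifier. The files name no genome build. KO was compared with WT by lmFit and eBayes, two-sided, with Benjamini-Hochberg adjustment over all 10335 features and a threshold of 0.05. The fit was also run on simulated data, with effects larger than the change of any member. It therefore does not show how well changes of the members' size are found. The number of arrays limits the precision.

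The members, the 7 other lists and the marker lists were chosen with earlier results of these data known. Named genes were all members, Anpep, up to 4 passing or else the 2 genes of smallest unadjusted p per list, and the 3 genes most like the member of smallest p. The 16 alternatives covered background correction, normalization, the authors' values, the filter, several probes per gene, the variance model, replicate numbers and single arrays left out.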

Additional observations from a re-analysis of the deposited data

How the results depend on the processing

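No member passed in any of the 16 other settings, and 108 of 112 member values kept their direction. The 4 that turned, all with median scaling over all probes, were Slc2a1 (-0.11), Hk1 (-0.24), Aldoa (-0.093) and Pgk1 (-0.22). That scaling shifted the median of all features to -0.33 and gave a median of -0.22 over the members, with 1 higher in KO. It called 201 features (14 higher, 187 lower) against 10 (5 and 5). Of the 7 other lists it called 1 gene, Egln3 of the hypoxia list. The features called were 5 without a filter (29453 tested), 4 for probes detected on all 4 arrays (9216 tested) and 16 with an intensity trend. The cause of these differences was not tested. Leaving out single arrays called 4 to 11 features (4 without WT array 1 or KO array 2), with 0 members, a members' median of 0.02 to 0.20, 5 members higher in KO and 0 genes of the other lists. There the spread of a lone array is taken from the other group. The replicate numbers are shared between groups by number only. With them as a replicate block 13 features and 0 members were called, and deviations of same-numbered arrays had a correlation of -0.02 across genes. With 2 arrays per group, small changes of the members could not be resolved.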
